A study of Mus musculus with 23 samples.

Results

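The sulforaphane (SFN) diet was compared with the control diet in cortical astrocytes of both genotypes together. All 12 libraries titled as SFN were set against all 11 titled as no SFN, which are the 23 libraries of the whole series, with genotype as a covariate. Genotype was read from Esr1, the estrogen receptor gene whose sequence is part of the tamoxifen-inducible Cre recombinase (CreER). The classes were chosen by the measured Esr1 level: 14 libraries with more than 5 counts scaled to library size (CPM) were taken as CreER carriers (7 SFN and 7 control) and the other 9 as noncarriers (5 SFN and 4 control). The lowest carrier had 15.75 CPM of Esr1 and the highest noncarrier 1.798 CPM. These values chose the classes and are given as a description.

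All mice were labelled male and homozygous for a floxed Aldh7a1 gene (Aldh7a1-Flox/Flox), either with CreER at 1 allele of Slc1a3 (cKOAstro, 7 libraries on each diet as labelled) or without CreER (ConAstro, 5 libraries on SFN and 4 on control diet as labelled). Slc1a3 encodes the glial glutamate transporter GLAST, so Cre acts in astrocytes and other cells that express it, and the CreER allele replaces 1 copy of that transporter gene. Mice of both genotypes received 4-hydroxytamoxifen at postnatal days 3 and 4, were fed from postnatal day 21 and were collected at postnatal day 70. Cells were taken from papain-dissociated cortex with beads against the astrocyte surface antigen ACSA-2, and poly(A) RNA was sequenced. Per the study's methods, the replicates of the sequencing are separate animals.

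Sulforaphane is an isothiocyanate from broccoli. It reacts with cysteines of KEAP1, the adaptor that otherwise hands the transcription factor NRF2 (Nfe2l2) to the CUL3 ubiquitin ligase. NRF2 that escapes degradation pairs with small MAF proteins at antioxidant response elements and drives genes of glutathione synthesis, quinone reduction, NADPH supply, heme breakdown and iron storage. In the brain this program is strongest in astrocytes.

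Total counts lay between 46890715 and 219904257 on SFN and between 74771451 and 391701247 on control diet. Mean log2 totals were 0.66 lower on SFN (two-sided permutation test with 100000 resamples, p = 0.0526), and on the linear scale the means were 106.6 and 190.9 M counts (p = 0.0318). The test did not use the class. Carriers had 46890715 to 140464734 counts on SFN and 107847897 to 391701247 on control diet. Noncarriers had 75992248 to 219904257 on SFN and 74771451 to 84049525 on control diet, so the lower totals on SFN were in carriers. Aldh7a1, the deleted gene, was at 43.05 to 77.21 CPM in carriers and at 177.3 to 226.1 CPM in noncarriers. Con_SFN replicate 1 was a carrier and cKO_SFN replicate 2 a noncarrier by Esr1, against their labels, and Aldh7a1 stood with the Esr1 class in both. In cKO_noSFN replicate 2, labelled male, Xist was at 1541 CPM and Ddx3y at 0.0077 CPM, whereas Xist was at most 0.7056 CPM and Ddx3y at least 83.6 CPM elsewhere. Library names fell into 6 prefixes whose meaning the labels do not give: 141 and 146 held control libraries only, 145 and 147 SFN libraries only, and 143 and Astro held both diets. Across prefixes 141, 145, 146 and 147 the diet and the prefix cannot be told apart. A fit with the prefix as a block compares the diets only within Astro (4 SFN and 2 control libraries) and 143 (3 and 4). In 143 only 1 SFN library was a noncarrier, as all 4 controls were. Values with the prefix as a block thus rest on few libraries. All 10 astrocyte markers were detected, and their summed level was between 15900 and 31800 CPM on SFN and between 18700 and 29600 CPM on control diet. The 10 oligodendrocyte markers summed to 22200 to 57500 CPM on SFN (median 30200) and 22800 to 32000 CPM on control diet (median 28000). The astrocyte medians were 23900 and 25700 CPM, so oligodendrocyte marker transcripts were also abundant in these preparations.

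No transcript passed the test for the diet. Out of 17302 genes in the edgeR quasi-likelihood fit, 0 (0%) had a Benjamini-Hochberg adjusted p under 0.05, and the lowest adjusted p was 0.64. At an unadjusted p under 0.05 there were 1285 genes, 612 higher on SFN (3.54% of genes tested) and 673 lower (3.89%). DESeq2 and limma-voom with quality weights also called 0 genes, with 1438 and 1190 genes at an unadjusted p under 0.05 and lowest adjusted p-values of 0.286 and 0.083. In no gene was every SFN library above, or every SFN library below, every control library (0%). The measurement was nevertheless fairly tight. Among 14181 genes with a mean of at least 1 CPM, the 95% confidence interval of the log2 fold change extended a median of 0.164 to either side of the estimate, and 90% of these genes had estimates within 0.22 of 0. The median log2 fold change over all genes tested was 0.01, and 53.5% of genes were higher on SFN.

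The best known NRF2 target transcripts were at nearly the same level on both diets. Nqo1, the quinone reductase used as the standard readout of NRF2 activity (ENSMUSG00000003849, GRCm38 chr8:107388225-107403206, minus strand), had a lowest, median and highest level of 6.45, 9.4 and 10.8 CPM on SFN and of 7.64, 8.89 and 11.8 CPM on control diet. The ranges overlapped almost fully, and the lowest SFN library, cKO_SFN replicate 7, lay below every control library. The log2 difference of Nqo1 was 0.0015 ± 0.082 (SE), with a 95% interval of -0.17 to 0.17, an adjusted p of 0.999 in edgeR with Benjamini-Hochberg adjustment, and log2 values near 0 in carriers (-0.00035) and noncarriers (-0.00048) alike.

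The interval was narrower still for Txnrd1, the cytosolic thioredoxin reductase. Its level was 54.5 to 68.4 CPM on SFN (median 62.7) and 58.8 to 66.9 CPM on control diet (median 62), a log2 difference of -0.0045 (95% interval -0.084 to 0.075). Srxn1, which reduces overoxidised peroxiredoxins, differed by 0.02 on the log2 scale (95% interval -0.093 to 0.14). Both subunits of glutamate-cysteine ligase, the first enzyme of glutathione synthesis, were also close to even. The modifier subunit Gclm was at a median of 72.4 CPM on SFN and 67.1 CPM on control diet, with a log2 difference of 0.05 (-0.053 to 0.14). The catalytic subunit Gclc was lower on SFN, with medians of 66.1 and 70.2 CPM and 10 of 12 SFN libraries under the control median, by -0.10 on the log2 scale (-0.21 to 0.0039), and did not pass the test. Slc7a11, the cystine importer, varied more between libraries, from 196 to 479 CPM on SFN and from 259 to 496 CPM on control diet, and differed by -0.07 (-0.34 to 0.20).

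**Figure D1:**
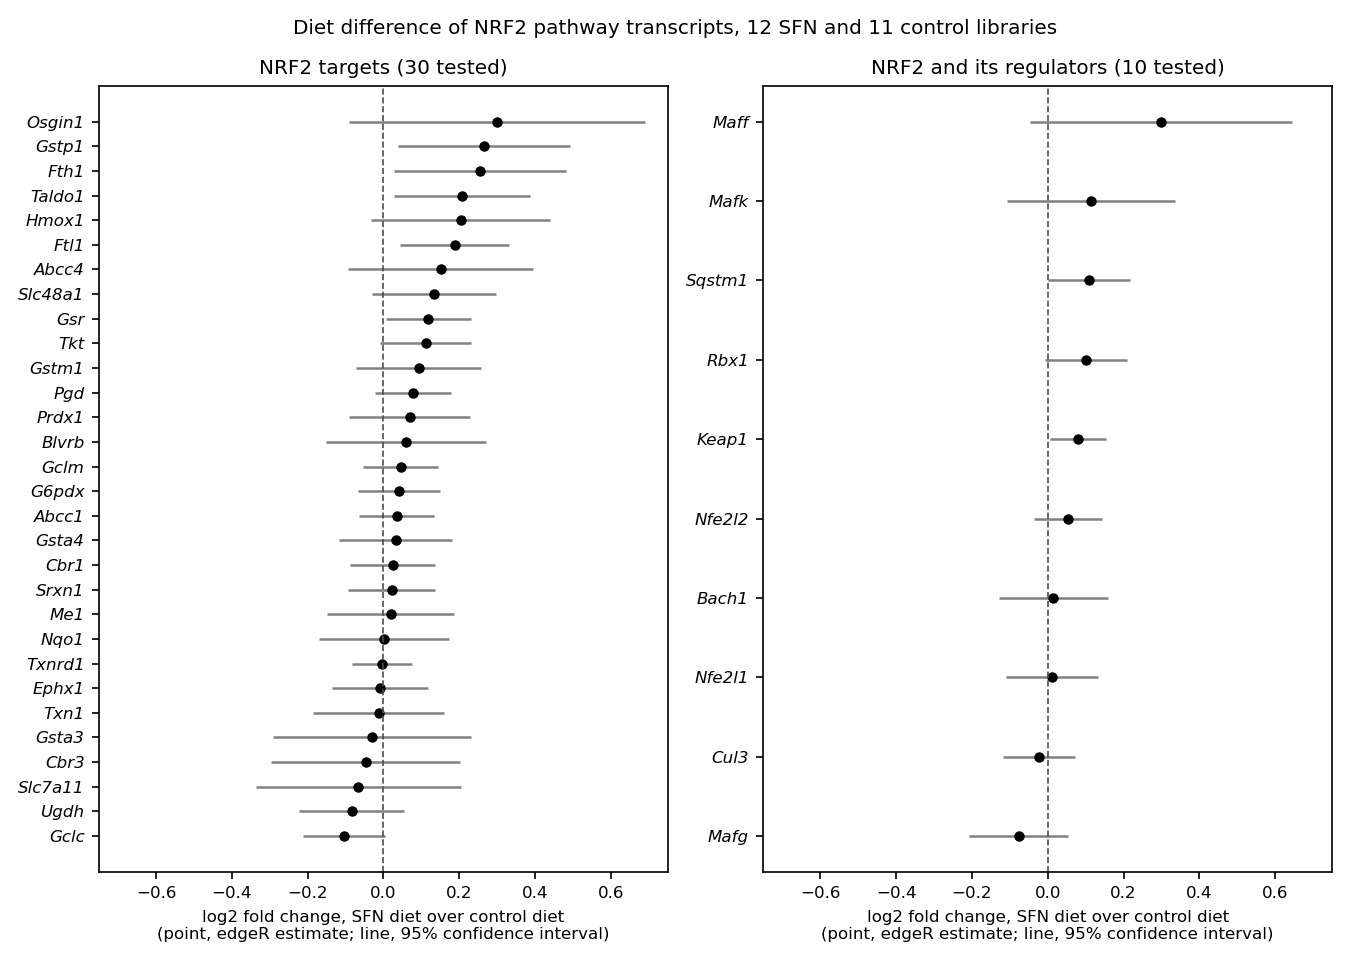
Log2 fold change of SFN over control diet (x axis) for each tested NRF2 target (left, 30 genes) and for NRF2 and its regulators (right, 10 genes), points being edgeR estimates and lines 95% confidence intervals. The intervals for Nqo1, Txnrd1, Srxn1 and Gclm span 0, and no estimate in either panel exceeds 0.3001.

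The antioxidant response element, the sequence that NRF2 and small MAF proteins bind, was looked for near the starts of these genes. Its core was searched as TGACNNNGC on both strands in RefSeq promoter windows of GRCm38.p6, from 250 bases before to 50 bases after each start. At least 1 match was present for 10 of 26 NRF2 targets with a window (38.5%), for 16.5% of the tested genes with a window, and in 12.4% of all 32851 windows. A match is a description of letters and not of binding. Matches of 4 targets and of the small MAF gene Maff are printed 5′ to 3′ on the strand of the gene, with the 9 bases of the match in capitals, so that the letters can be seen beside the values.
Gclm, chr3:122245413-122245441, plus strand: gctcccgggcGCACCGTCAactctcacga
Txnrd1, chr10:82859104-82859132, plus strand: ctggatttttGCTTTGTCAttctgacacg
Me1, chr9:86695902-86695930, minus strand: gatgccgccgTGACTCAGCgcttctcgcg
Prdx1, chr4:116685456-116685484, plus strand: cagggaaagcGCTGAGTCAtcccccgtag
Maff, chr15:79346499-79346527, plus strand: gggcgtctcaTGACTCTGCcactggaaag
In Gclm, Txnrd1 and Prdx1 the capitals are the reverse complement of the core. The log2 differences of the 3 were 0.05, -0.0045 and 0.07. Me1, the NADP-dependent malic enzyme, differed by 0.02 (-0.15 to 0.19) and Maff by 0.30 (-0.047 to 0.64).

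Over the whole list of 32 NRF2 targets, 30 could be tested, and Gsta1 and Gsta2 had too few counts. No member passed the test. By sign, 22 were higher and 8 lower on SFN, with a median log2 fold change of 0.043 beside 0.01 over all genes, and the median was 0.045 in carriers and 0.043 in noncarriers. It was 0.028 without Con_SFN replicate 4 and 0.0164 by limma-voom. At an unadjusted p under 0.05, 5 members were higher, where the share over all genes was 3.54%, and 0 were lower. These were the ferritin light and heavy chains Ftl1 and Fth1, the glutathione transferase Gstp1, the pentose phosphate enzyme Taldo1 and the glutathione reductase Gsr.

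The 5 differences were small. Ftl1 was at 278 to 468 CPM on SFN (median 318) and 266 to 316 CPM on control diet (median 292), a log2 difference of 0.19 ± 0.069. Fth1 was at 1630 to 3910 CPM (median 2140) against 1720 to 2330 CPM (median 1890), a difference of 0.25 ± 0.11. Gsr was at 36.1 to 50.3 CPM (median 43.3) against 35.3 to 43.9 CPM (median 39), a difference of 0.12 ± 0.055. In each of the 3 genes the ranges overlapped, with 6 SFN libraries above every control library for Ftl1, 5 for Fth1 and 6 for Gsr. Gstp1 and Taldo1 differed by 0.26 ± 0.11 and 0.21 ± 0.087, and for both 7 SFN libraries lay above every control library. All 5 had an adjusted p of 0.64 (edgeR, Benjamini-Hochberg). The library cKO_SFN replicate 4 was the highest of all for Fth1, Gstp1 and Taldo1. Without it the log2 differences were 0.16 for Fth1, 0.16 for Gstp1, 0.12 for Taldo1, 0.17 for Ftl1 and 0.11 for Gsr, all with an adjusted p of 0.827. Ferritin and Gstp1 have near-identical gene copies in the mouse, so the reads counted for each are uncertain. Oligodendrocyte markers were also higher on SFN by list, in 10 of 10 members with a median of 0.20, and none passed the test. Their median was 0.275 in carriers, 0.0914 in carriers without cKO_SFN replicate 4, and 0.077 in noncarriers. The part of oligodendrocyte RNA in the 5 differences was not tested.

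**Figure D2:**
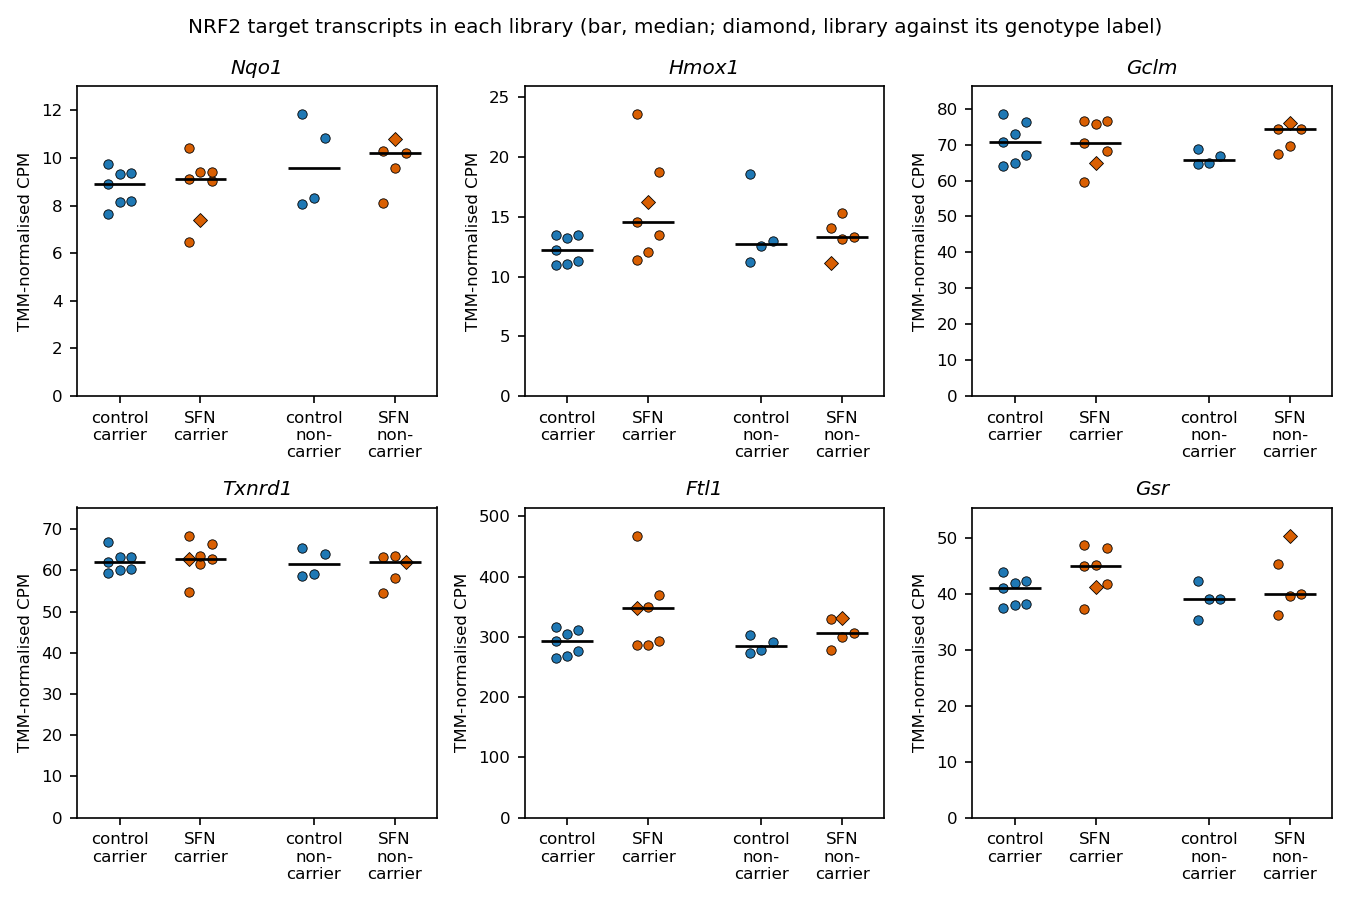
Normalised CPM (y axis, from 0) of 6 NRF2 targets in each library, by diet (orange, SFN, blue, control) and CreER marker class, with the median as a bar and the 2 libraries against their genotype label as diamonds. The diets overlap in every panel, and medians on SFN and control diet were 9.4 and 8.89 CPM for Nqo1 and 318 and 292 CPM for Ftl1.

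Hmox1, the heme oxygenase that responds to many stresses, was at 11.2 to 23.6 CPM on SFN (median 13.8) and at 11 to 18.6 CPM on control diet (median 12.5). Its log2 difference was 0.20 (-0.033 to 0.44) over all libraries, 0.36 in carriers and -0.05 in noncarriers. The difference between the classes had an unadjusted p of 0.0823 and did not pass. Without cKO_SFN replicate 1 the difference of Hmox1 was 0.12. The pentose phosphate enzymes that supply NADPH, Tkt, Pgd and G6pdx, were higher by 0.11, 0.08 and 0.04, all with 95% intervals that included 0. Tkt was at 0.07 without cKO_SFN replicate 4 and Pgd at 0.05 without cKO_SFN replicate 1. Osgin1, a growth inhibitor, had the highest estimate of the list, 0.30 ± 0.19, at a mean of 1.672 CPM.

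Of NRF2 and its 9 regulators, 8 were higher on SFN with a median of 0.067 (0.0349 without cKO_SFN replicate 5), and none passed. Nfe2l2 itself was at 65.5 to 79.2 CPM on SFN (median 73.7) and 62 to 81.2 CPM on control diet (median 70.3), a difference of 0.05 (-0.037 to 0.14). Keap1, the target of sulforaphane, was at a median of 70.1 and 65.6 CPM, higher by 0.08 (0.0069 to 0.15). Sqstm1, the autophagy receptor that binds KEAP1, was higher by 0.11 (0.0017 to 0.22). Both had an unadjusted p under 0.05 (0.0334 and 0.0467) and an adjusted p of 0.64 in edgeR with Benjamini-Hochberg adjustment. Without cKO_SFN replicate 4 their differences were 0.06 and 0.07. A further list of 30 glutathione, peroxidase and thioredoxin genes had a median of 0.039 (0.0126 without cKO_SFN replicate 1 and -0.00019 by limma-voom), with 21 higher, and 2 of them at an unadjusted p under 0.05. The lower p was that of Gsto1, a glutathione transferase of the omega class, higher by 0.16 ± 0.061.

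The lowest unadjusted p-values belonged to other genes. Among the 10 lowest in the upward direction were Cxcl2, a chemokine for neutrophils, Il1b, the inflammatory cytokine interleukin-1 beta, and Edn1, the vasoconstrictor endothelin-1. Cxcl2 (ENSMUSG00000058427, GRCm38 chr5:90903871-90905938, plus strand) was at 2.83 to 7.58 CPM on SFN (median 5.13) and at 1.31 to 5.64 CPM on control diet (median 2.71). All 12 SFN libraries were above the control median and 4 were above every control library. The difference was 0.85 ± 0.20 on the log2 scale (95% interval 0.44 to 1.26), with an unadjusted p of 0.000295 and an adjusted p of 0.64 (edgeR, Benjamini-Hochberg), and it was 0.97 in carriers and 0.66 in noncarriers. It stood at 0.854 without the 2 libraries against their labels and at 0.717 with the name prefix as a block. Within prefix 143 alone, where the fit came down to 1 SFN library against 4 control libraries, it was -0.21.

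Il1b (GRCm38 chr2:129364570-129371139, minus strand) was at 5.84 to 13.3 CPM on SFN (median 7.32) and 3.24 to 9.57 CPM on control diet (median 4.82), and 12 of 12 SFN libraries lay above the control median. The difference was 0.66 ± 0.19, with 0.72 in carriers and 0.55 in noncarriers. Edn1 (GRCm38 chr13:42301476-42307990, plus strand) was at 6.94 to 18.2 CPM (median 10) against 3.67 to 11.9 CPM (median 5.79), a difference of 0.70 ± 0.19, with 0.70 and 0.69 in the classes. With the name prefix as a block the difference of Edn1 was 0.235, and it was 0.0791 when the 2 libraries against their labels were also left out. For both genes the groups overlapped, with 4 and 3 SFN libraries above every control library. Exons of both overlap an annotated gene on the opposite strand, and the strand setting of the counts is not given in the sources used here.

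Other cytokine genes were looked up after the values of Cxcl2 and Il1b were seen. Tnf was higher by 0.58 ± 0.18 (median 3.38 against 2.45 CPM), Cxcl1 by 0.64 ± 0.18 (2.7 against 1.64 CPM), Ccl22 by 0.80 ± 0.22 (1.01 against 0.53 CPM), and Ccl3 and Ccl4 by 0.54 and 0.53. Each had an unadjusted p under 0.05, none had an adjusted p under 0.64, and all 5 were higher in both marker classes. With the name prefix as a block the differences of Tnf, Cxcl1, Ccl22, Ccl3 and Ccl4 were 0.31, 0.403, 0.842, 0.39 and 0.491. Of the other 3 looked up, the chemokine Ccl2 differed by 0.52 (unadjusted p = 0.0677, and 0.342 without cKO_SFN replicate 1), Nfkbiz by 0.29 (0.115 with the prefix as a block) and Il1a by 0.05 ± 0.25. In brain, microglia are the main source of most of these cytokines. The summed level of 10 microglia markers was 294 to 3270 CPM on SFN (median 1280) and 404 to 2740 CPM on control diet (median 1380), and no microglia marker was at 0 in all libraries. The median log2 difference of the microglia list was 0.025, with 0.18 in carriers and -0.26 in noncarriers. It was 0.647 with the prefix as a block, 1.38 in the Astro names alone and -0.0097 without the 2 libraries against their labels. The 16 immediate early genes that tissue dissociation induces were at a summed 1280 to 2410 CPM (median 2040) on SFN and 1400 to 2070 CPM (median 1760) on control diet. Their mean log2 sum was 0.19 higher on SFN (permutation p = 0.108, adjusted over 11 marker lists 0.526), and the part of either in the cytokine values was not tested.

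**Figure D3:**
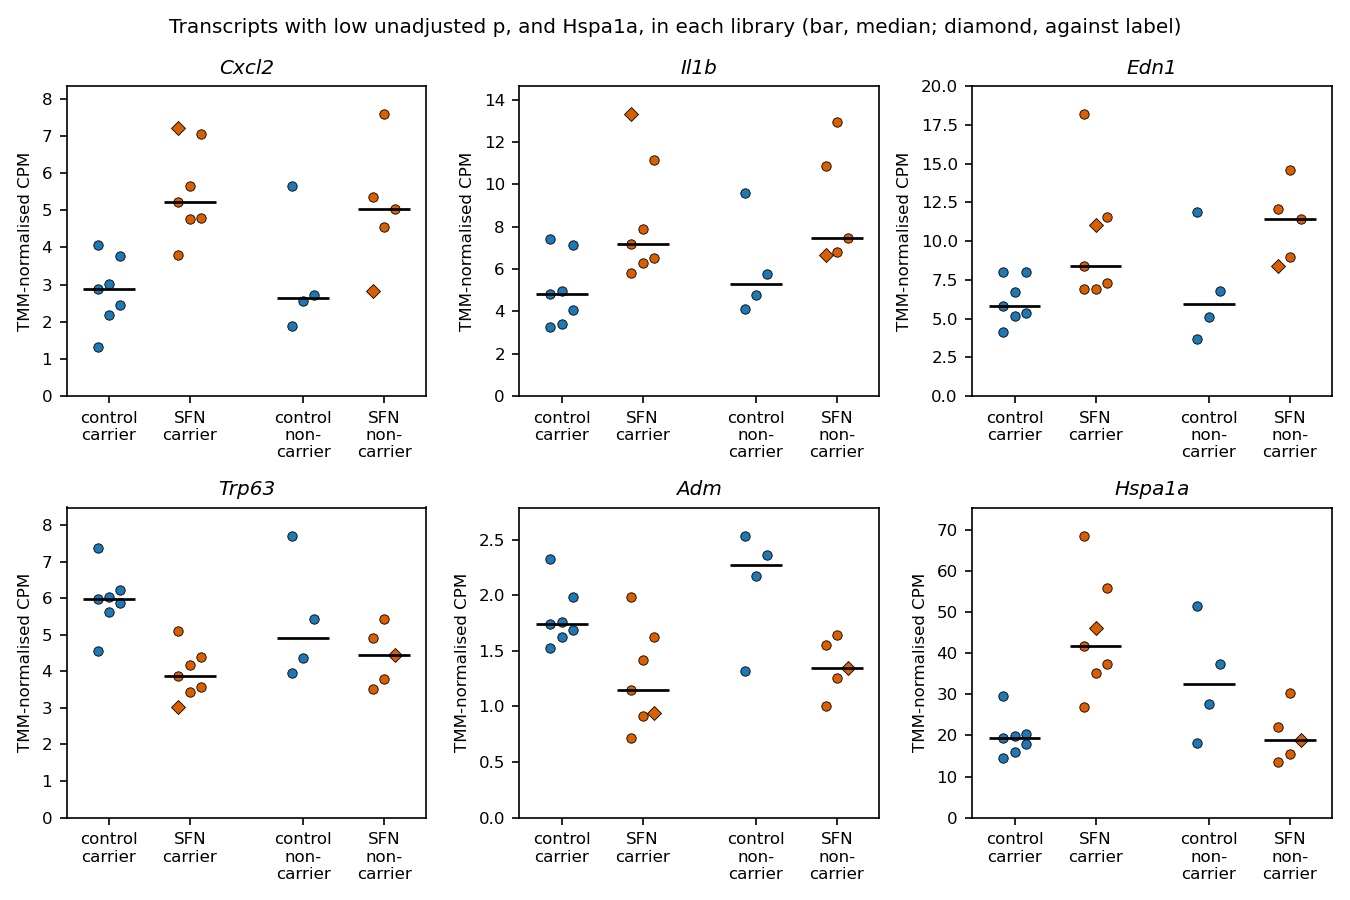
Normalised CPM (y axis, from 0) of Cxcl2, Il1b, Edn1, Trp63, Adm and Hspa1a in each library, by diet (orange, SFN, blue, control) and CreER marker class, with medians as bars and the 2 libraries against their genotype label as diamonds. Cxcl2 medians were 5.13 CPM on SFN and 2.71 CPM on control diet, and Hspa1a was higher on SFN in carriers (median 41.8 against 19.3 CPM) and lower in noncarriers (18.9 against 32.5 CPM).

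The rest of the 10 upward genes had smaller differences at higher levels. Zfp358 and Zfp622, zinc finger genes, were higher by 0.16 ± 0.042 and 0.17 ± 0.044, and all 12 SFN libraries were above the control median for both. Eif3f, a subunit of translation initiation factor eIF3, was higher by 0.16 ± 0.043 and lay at 70.5 to 94.1 CPM against 66.9 to 80.1 CPM, with 8 SFN libraries above every control library. Rragc, a GTPase of amino acid sensing by mTORC1, Rnf185, a ubiquitin ligase of the endoplasmic reticulum, Zfp747 and Sh3bgrl3 were higher by 0.13, 0.12, 0.20 and 0.24.

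In the downward direction, Trp63, the transcription factor p63, was at 3.03 to 5.43 CPM on SFN (median 4.03) and 3.96 to 7.71 CPM on control diet (median 5.87). No SFN library was above the control median, and 6 were below every control library. The difference was -0.47 ± 0.12 (unadjusted p = 0.000533). Adm, which encodes the vasodilator adrenomedullin, was at 0.714 to 1.98 CPM (median 1.3) against 1.32 to 2.54 CPM (median 1.76), a difference of -0.57 ± 0.15. Acap1, a regulator of the small GTPase ARF6, was lower by -0.76 ± 0.20 and had no SFN library above the control median. The group also held Spag1, needed for assembly of dynein arms (-0.19 ± 0.050), Dnah7b, a ciliary dynein heavy chain (-0.47 ± 0.13), Ttll8, a tubulin glycylase (-0.40 ± 0.11), Iqch (-0.65 ± 0.16), Hist1h4k (-0.50 ± 0.14), Ptpn13 (-0.23 ± 0.066) and 6720489N17Rik (-0.26 ± 0.069). All had an adjusted p of 0.64 (edgeR, Benjamini-Hochberg). The lowest estimate of any gene with a mean of at least 1 CPM was -7.21 for Xist, which was -0.51 without cKO_noSFN replicate 2.

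Genes of the motile cilium, the beating cilium of ependymal cells that astrocytes largely lack, were lower on SFN by list. Of 23 tested members 22 had a lower estimate, with a median of -0.40 beside 0.01 over all genes, and 9 had an unadjusted p under 0.05, where 3.89% of all genes were lower at that level. None passed the test. The median was -0.51 in carriers and -0.24 in noncarriers. The noncarrier value rested on Con_noSFN replicate 3, without which it was 0.235, with 19 of 22 members higher on SFN. Over all libraries the median was -0.276 without that library. Cfap44, an axonemal protein, was at 18.1 to 54.7 CPM on SFN (median 26.9) and 25.5 to 80.7 CPM on control diet (median 40.6), a difference of -0.63 ± 0.21. Dnah5, an outer dynein arm heavy chain, was at 18.4 to 61.1 CPM (median 30.4) against 31.6 to 88.1 CPM (median 50.8), a difference of -0.65 ± 0.24. The groups overlapped for both, with 6 SFN libraries below every control library in each. The list's median was -0.387 without the 2 libraries against their labels, -0.258 with the name prefix as a block, -0.256 in the Astro names alone, and -0.0908 in prefix 143 alone. Markers of choroid plexus and ependyma, cells that border the ventricles, had a summed level of 1210 to 6170 CPM on SFN (median 1540) and 1130 to 7840 CPM on control diet (median 1380), and a median log2 difference of 0.68 in carriers and -0.98 in noncarriers. Both signs turned with 1 library left out, to -0.606 in carriers without Con_SFN replicate 1 and to 2.41 in noncarriers without Con_noSFN replicate 2. Their part in the cilium values was not tested. In such bulk samples fewer cells of a type and less RNA per cell cannot be told apart.

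Endothelial markers were higher on SFN by list, with 10 of 10 members higher and a median of 0.47, and 4 of them at an unadjusted p under 0.05, beside 3.54% of all genes. The median was 0.44 in each marker class. Without cKO_SFN replicate 3 it was 0.308 over all libraries and 0.179 in carriers, and without Con_SFN replicate 4 it was 0.263 in noncarriers. Ly6c1, a surface antigen of brain endothelium, was at 16.5 to 52.4 CPM on SFN (median 32.2) and 14.7 to 39.7 CPM on control diet (median 21.7), a difference of 0.50 ± 0.19. Cldn5, the tight junction protein of the blood-brain barrier, was at 29.5 to 131 CPM (median 83.9) against 31.6 to 104 CPM (median 48.2), a difference of 0.51 ± 0.22. Neither passed the test. Summed over the list, levels were 211 to 908 CPM on SFN and 267 to 697 CPM on control diet, with a mean log2 difference of 0.37 (permutation p = 0.143, adjusted 0.526). The highest mean log2 CPM over the list, 6.22 in both cKO_SFN replicate 3 and Con_SFN replicate 4, were in prefix 147, which held SFN libraries only. With the prefix as a block the list's median was -0.145, and in the Astro names alone it was 0.0062. The direction of the endothelial list thus depended on whether the prefix was in the fit.

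**Figure D4:**
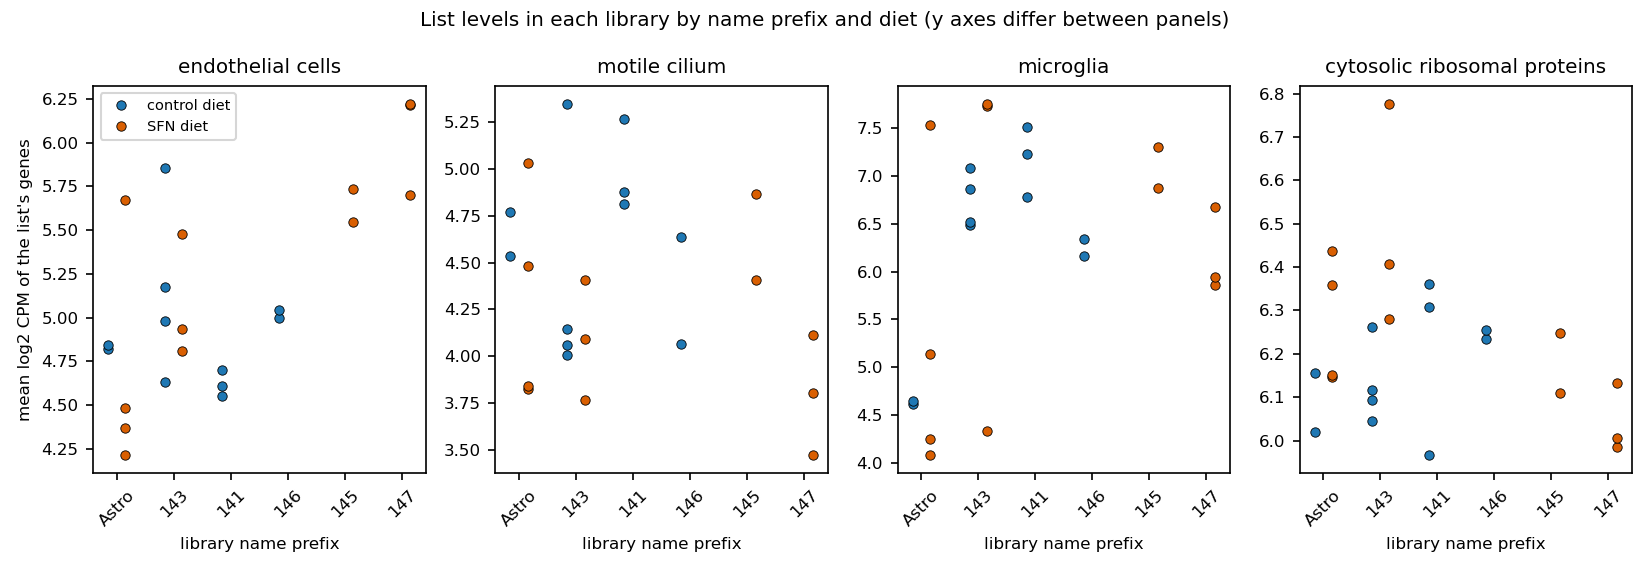
Mean log2 CPM over the genes of 4 lists (y axes, which differ) in each library, by library name prefix (x axis) and diet (orange, SFN, blue, control). The 2 highest endothelial levels, both 6.22, were in prefix 147, which holds SFN libraries only, and microglia levels spread from 4.079 to 7.757 across libraries with both diets at each end.

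Several lists had opposite signs in the marker classes. In carriers 17 of 18 heat shock genes were higher on SFN (median 0.14) and in noncarriers 1 of 18 was (median -0.14). The medians were 0.0661 in carriers without cKO_SFN replicate 5 and -0.0495 in noncarriers without Con_noSFN replicate 3. Hspa1a, the stress-inducible HSP70, was at 26.8 to 68.6 CPM on SFN (median 41.8) and 14.4 to 29.6 CPM on control diet (median 19.3) in carriers, but at 13.5 to 30.2 CPM (median 18.9) and 18.2 to 51.5 CPM (median 32.5) in noncarriers. The groups overlapped narrowly in carriers, where only cKO_noSFN replicate 2 reached the SFN range. The log2 difference was 1.18 in carriers and -0.75 in noncarriers, and the test of the difference between classes gave an unadjusted p of 2.78e-05 and an adjusted p of 0.481 (edgeR, Benjamini-Hochberg). Hspa1b, its near-identical neighbour with which it can share reads, had 1.05 and -1.10, and the cochaperone Dnajb1 had 0.44 and -0.56. Averaged over the classes, Hspa1a differed by 0.43 ± 0.27. No gene passed the test of a difference between classes by edgeR (0 of 17302, 0%, with 707 at an unadjusted p under 0.05).

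The 49 cytosolic ribosomal protein genes were all higher on SFN (median 0.11), with 6 at an unadjusted p under 0.05, beside 3.54% of all genes. The median was 0.0491 without cKO_SFN replicate 1 and 0.0326 by limma-voom. Rpl6, of the large subunit, was higher by 0.17 ± 0.057. The list's median was 0.18 in carriers (0.0906 without cKO_SFN replicate 1), with 49 of 49 higher, and -0.0041 in noncarriers, with 22 of 49 higher. NADH dehydrogenase subunits, of the first complex of the respiratory chain, behaved alike by sign, with 33 of 34 higher over all libraries (median 0.052), 33 in carriers and 14 in noncarriers. Their median was 0.0098 without cKO_SFN replicate 1 and -0.0254 by limma-voom. Antigen presentation and interferon genes were higher in 24 of 24 (median 0.17, with 0.27 in carriers and 0.04 in noncarriers), and 3 had an unadjusted p under 0.05, beside 3.54% of all genes. These were Irf1, an interferon regulatory factor (0.20 ± 0.087), Cd74, the MHC class II chaperone (0.63 ± 0.28), and B2m, the light chain of MHC class I (0.45 ± 0.21). The median was 0.0722 without cKO_SFN replicate 1 (0.131 in carriers), 0.0996 with the prefix as a block and -0.539 in prefix 143 alone. Glucocorticoid-responsive genes had medians of 0.31 and -0.17 in carriers and noncarriers, which were 0.0808 without cKO_SFN replicate 5 and 0.0621 without Con_noSFN replicate 3. None of the members of these lists passed the test, and many ribosomal protein genes have pseudogenes that can take their reads.

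**Figure D5:**
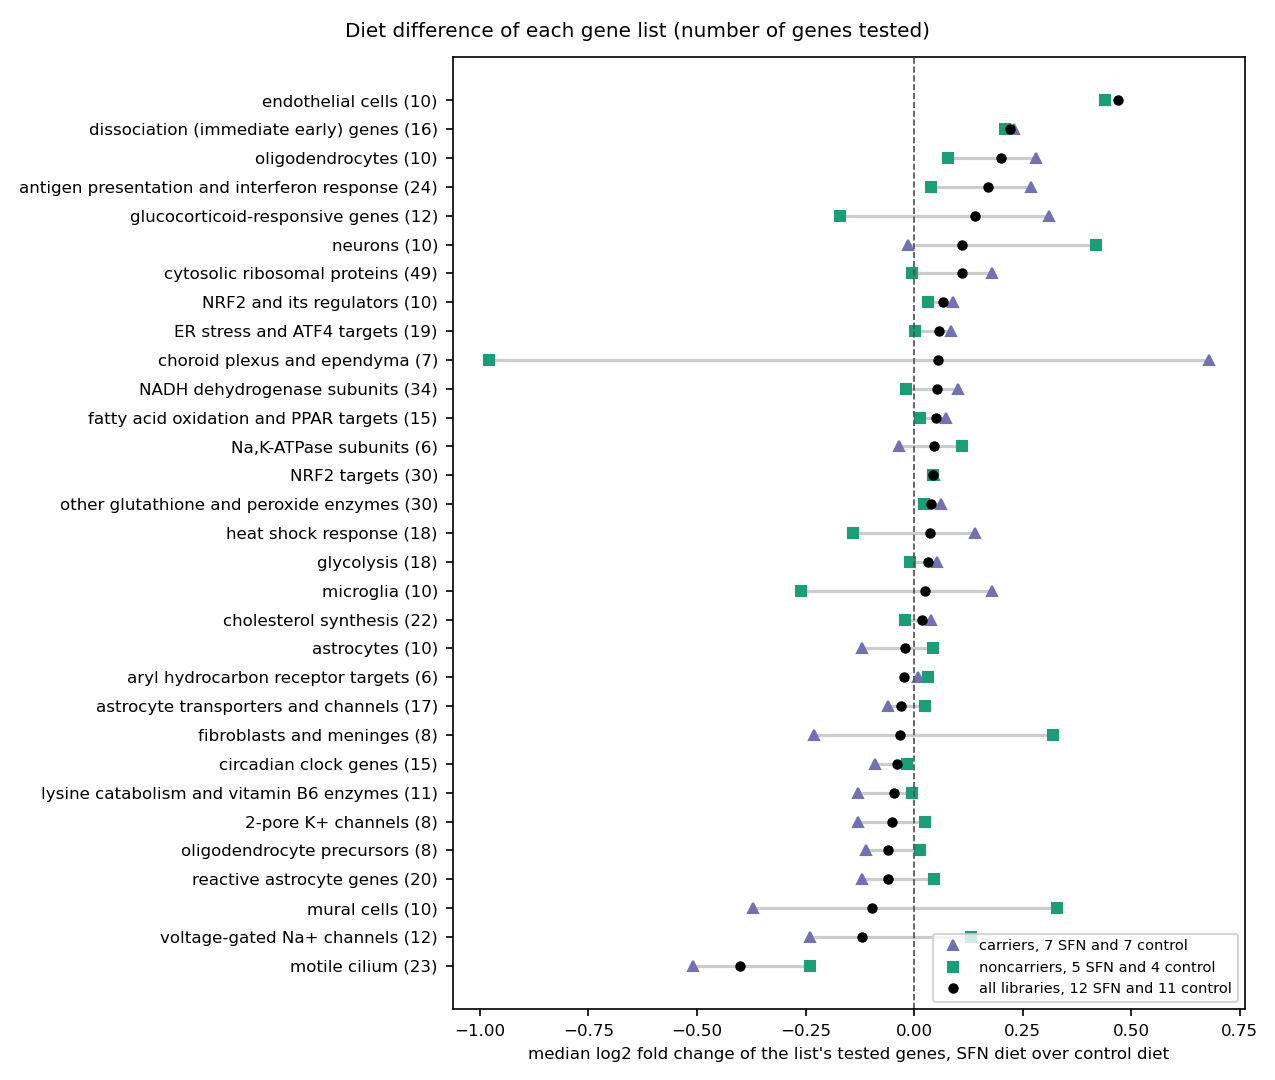
Median log2 fold change of SFN over control diet for each gene list with at least 5 tested members (x axis), over all libraries (black circles), in carriers (triangles) and in noncarriers (squares), with the number of genes tested in brackets. The NRF2 target medians lie together near 0.043, the noncarrier cilium value turns to 0.235 without Con_noSFN replicate 3, and the endothelial median over all libraries turns to -0.145 with the prefix as a block. The heat shock, glucocorticoid, microglia and mural cell lists are among those that change sign between classes. The microglia median turns to -0.0805 in carriers without cKO_SFN replicate 7 and is -0.0095 in noncarriers without cKO_SFN replicate 2. Mural cell medians are -0.37 in carriers and 0.33 in noncarriers.

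Lists of ion transport genes bear on astrocyte potassium and sodium handling. The 6 Na,K-ATPase subunits had a median of 0.045, the 8 tested 2-pore potassium channels -0.052, and the 12 tested voltage-gated sodium channel genes -0.12, with 9 of those 12 lower. In carriers and noncarriers the medians were -0.035 and 0.11 for the ATPase, -0.13 and 0.026 for the 2-pore channels and -0.24 and 0.13 for the sodium channels. The ATPase median was -0.0436 with the prefix as a block and -0.247 in the Astro names alone. No member passed or had an unadjusted p under 0.05. Among astrocyte transporters and channels (median -0.031), the water channel Aqp4 differed by -0.19 ± 0.11 and the cotransporter NKCC1, Slc12a2, by 0.16 ± 0.090. Reactive astrocyte genes had a median of -0.061, with 15 of 20 lower. It was -0.12 in carriers, with 3 of 20 higher, and 0.046 in noncarriers, with 14 of 19 higher. The noncarrier value was -0.0447 without Con_noSFN replicate 2. Of the lysine catabolism genes, Dhtkd1, of the mitochondrial 2-oxoadipate dehydrogenase complex, was lower by -0.28 ± 0.12 (unadjusted p = 0.0274). Aldh7a1 itself was at 43 to 56.5 CPM on SFN and 45.9 to 77.2 CPM on control diet in carriers (log2 difference -0.22), and at 177 to 226 and 207 to 220 CPM in noncarriers (-0.04).

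The classes share no library, so their values can be set side by side. Within carriers 0 of 16825 genes passed (0%, lowest adjusted p 0.437, 1413 or 8.4% at an unadjusted p under 0.05), and within noncarriers 0 of 16481 (0%, lowest adjusted p 1, 610 or 3.7% unadjusted), both by edgeR with Benjamini-Hochberg adjustment. DESeq2 called 12 genes in carriers (0.0713%) and 8 in noncarriers (0.0485%). The 12 included Hspa1a (1.19), Cxcl2 (0.97), Tnfsf9, a ligand of the TNF family (0.59), Trp63 (-0.58) and Krt15, a keratin (-1.07), and the 8 included the smooth muscle myosin Myh11 (0.81) and the vascular amine oxidase Aoc3 (0.91). Across 16448 genes tested in both classes 52.6% had the same sign, and Pearson's r of the log2 differences was 0.137, over genes that are not independent and share their libraries within a class. Of 1392 genes with an unadjusted p under 0.05 in carriers, 860 (61.8%) had the same sign in noncarriers, and of 608 such genes in noncarriers, 312 (51.3%) had the same sign in carriers. There were 38 genes with an unadjusted p under 0.05 in both classes, beside 8.4% of genes in carriers and 3.7% in noncarriers at that level. Of the 38, 17 had the same sign and more had opposite signs. Over all genes 52.6% had the same sign, so these counts do not mark the 17 as shared by the classes. Those 17, named after their values were seen, included Tnf, Ccl22, Eif3f and Sh3bgrl3, which were higher, and Adm, Spag1, Dnah7b, Ttll8, the telomerase gene Tert (-0.59 ± 0.17), and Utp14b (-0.44 ± 0.13), which were lower. In noncarriers all 4 control libraries had the prefix 143, so there the diet is partly the prefix as well. The same holds in carriers. Outside the Astro names, carrier controls had the prefixes 141 and 146 and carrier SFN libraries 143 and 147. Only the Astro names held both diets in carriers, with 4 SFN and 2 control libraries.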

How the data were processed

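RNA from bead-enriched cortical astrocytes of 23 libraries was sequenced in pairs. Per the labels, the authors ran FastQC and aligned reads to mm10 with STAR, and they deposited whole-number counts per gene symbol (24411 symbols), not normalised. The STAR version, annotation and strand setting are not given in the sources used here.

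Libraries were grouped by title and by Esr1. Counts were fitted with edgeR 4.0.16 (limma 3.58.1, R 4.3.3): TMM normalization, filterByExpr (minimum count 10, minimum total 15), marker class and diet as terms, quasi-likelihood test, Benjamini-Hochberg adjustment over all genes, threshold 0.05. CPM are TMM-normalised. Errors after ± are standard errors of the log2 fold change. DESeq2 1.42.0 was an alternative. The fit was checked on simulated counts. Marker sums and totals were compared by two-sided permutation tests. Intervals cover the spread between libraries.

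Named genes were the NRF2 lists, the 10 lowest unadjusted p-values in each direction with a mean of at least 1 CPM, and the lowest p of each other list per direction. The members and the 32 lists (21 themes, 11 of cell type or dissociation markers) were chosen with earlier results of these data known. Of 506 list genes, 499 were in the table and 492 were tested. Red blood cell genes had 1 tested member, higher by 0.54. Positions are from GENCODE M21, and 147 of 148 named genes matched.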

Additional observations from a re-analysis of the deposited data

Results flagged for a closer look

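In labelled groups of 4 to 10 libraries, a library was set apart where its gap to the nearest other exceeded Dixon's 95% critical value for the group's range. Chance does so in about 1 in 20 groups, and 18 of 116 combinations of group and measure stood apart. The 2 numbers cannot be compared. Esr1 chose the classes, and the 2 libraries against their labels had been seen before. Several measures also go together, such as Hspa1a and the heat shock list. In cKO_SFN, replicate 2 was at 0.533 CPM of Esr1 (nearest other 16.9) and 222 CPM of Aldh7a1 (56.5), and in Con_SFN, replicate 1 was at 19.96 CPM of Esr1 (1.74) and 55.7 CPM of Aldh7a1 (177). In cKO_noSFN, replicate 2 was at 1541 CPM of Xist (0.586) and 0.0077 CPM of Ddx3y (88.4). The same library was the highest of its group for Hspa1a, at 29.6 CPM (20.4), and for the heat shock list, at a mean log2 CPM of 7.00 (6.53).

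On SFN, Con_SFN replicate 3 had a total of 219.9 M counts (nearest other 83.1), cKO_SFN replicate 1 had 11.1 CPM of Il1b (7.89), cKO_SFN replicate 3 had 18.2 CPM of Edn1 (11.6), cKO_SFN replicate 5 had 2.81 CPM of Acap1 (1.85), and cKO_SFN replicate 7 had 6.45 CPM of Nqo1 (9.03). By list, Con_SFN replicate 5 was lowest for NRF2 targets at a mean log2 CPM of 5.89 (6.02), Con_SFN replicate 4 highest for endothelial cells at 6.22 (5.74), and cKO_SFN replicate 5 highest for heat shock genes at 7.28 (6.82). On control diet, Con_noSFN replicate 3 was highest for Iqch, at 2.69 CPM (1.61), and for the motile cilium list, at a mean log2 CPM of 5.35 (4.14). No gene passed the test of a difference between the diet effects of the marker classes.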

How the results depend on the processing

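The count of 0 genes in the diet comparison held under DESeq2, limma-voom, RLE normalization, no filter, labelled genotype or none, numbered names alone, the name series or prefix in the fit, thinned counts, without the 2 libraries against their labels, and without each library in turn (0 to 0 genes, 853 to 1582 at an unadjusted p under 0.05). Of the fits that left out 1 library, the lowest unadjusted counts came without cKO_noSFN replicate 1 (855) and replicate 5 (853). The unadjusted count of 1285 was 759 without the 2 libraries against their labels and 2080 with the prefix as a block, and the cause was not tested. Prefix 143 alone and the Astro names alone were added after seeing the data. Prefix 143 alone called 56 genes (2094 unadjusted), 44 lower on SFN, among them 7 of 10 microglia markers. Its 2 other SFN libraries were the only carriers, so there the diet term compares 1 library, cKO_SFN replicate 2, with 4 controls. The Astro names alone called 0 (266 unadjusted). DESeq2 called 12 genes within carriers and 8 within noncarriers where edgeR called 0. Leaving out each library gave 0 to 0 genes in both classes by edgeR. DESeq2 was not refitted without single libraries, so how its calls depend on them was not tested. The unadjusted count went from 1413 to 2316 within carriers without cKO_SFN replicate 3 and from 610 to 1379 within noncarriers without cKO_SFN replicate 2. With the replicate block the diet comparison called 0 genes (1203 unadjusted). The numbers did not pair samples: of 29 same-numbered pairs across groups 8 had a correlation of deviations over 0.1 (median -0.0143), and the block changed no call. With the classes pooled, library totals differed by -84.3 M counts on the linear scale (permutation p = 0.0318) but missed the threshold on the log2 scale (permutation p = 0.0526). The NRF2 target median stayed above 0 in all 38 alternatives, from 0.0164 to 0.0909, and from 0.028 to 0.0557 leaving out libraries. Depth limits the genes near 1 CPM, such as Adm and Tert.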
